A study of Mus musculus with 6 samples.

Results

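The Xlr3, Xlr4 and Xlr5 genes are a family on the mouse X chromosome, in 3 subfamilies of near-identical copies. The 9 copies Xlr3a, Xlr3b, Xlr3c, Xlr4a, Xlr4b, Xlr4c, Xlr5a, Xlr5b and Xlr5c were taken by name from the 24421 genes of the deposited table. The family was picked because its levels differed between Pml knockout and wild-type cells in these same libraries, so those levels are given as a description, without a test. Of the 9 copies, 9 passed the filter on low values, 7 of them through the wild-type libraries alone. The knockout group was 3 libraries of Pml-/- cells and the other group was 3 libraries of wild-type cells. Both were of E14, a mouse embryonic stem cell line of male origin, grown in serum with leukemia inhibitory factor, CHIR99021 and PD0325901, inhibitors of GSK3 and MEK. The comparison asks which transcripts differ when Pml, the scaffold of PML nuclear bodies, is disrupted. The labels do not say whether replicates were separate cultures. The 3 knockout columns share the prefix KO34 and may be 1 line, so each p-value below sets the group difference against the scatter of these libraries alone, a scatter that may be technical.

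Xlr genes (X-linked, lymphocyte-regulated) encode nuclear proteins related to SYCP3, a structural protein of the synaptonemal complex that holds paired chromosomes together in meiosis. Xlr3 protein is known from the sex chromosomes of mouse spermatocytes. Xlr3b, Xlr4b and Xlr4c are imprinted in mouse brain, where the maternal allele is the more active one, and the chromatin remodeler ATRX has been linked to the silencing of Xlr3b in mouse neurons.

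The promoters are shown first, with 1 window per subfamily. The Xlr3b and Xlr4a windows are close to those of the other copies of their subfamilies and the Xlr5a window is like that of Xlr5b. None of them stands for the RefSeq window of Xlr5c (chrX:73290466-73290765, minus strand). That window lies inside the GENCODE M21 transcript of Xlr5c (73282896 to 73292976) and not at its start. Whether the Xlr5c window differs for this reason was not tested. Each window runs from 250 bases before to 50 bases after the RefSeq start in GRCm38.p6, read 5′ to 3′ on the gene's strand, and capitals mark each CG, the dinucleotide that DNA methyltransferases act on. Xlr3b lies at chrX:73191929-73192228 on the plus strand, Xlr4a at chrX:73082458-73082757 on the minus strand and Xlr5a at chrX:73117653-73117952 on the minus strand.
Xlr3b: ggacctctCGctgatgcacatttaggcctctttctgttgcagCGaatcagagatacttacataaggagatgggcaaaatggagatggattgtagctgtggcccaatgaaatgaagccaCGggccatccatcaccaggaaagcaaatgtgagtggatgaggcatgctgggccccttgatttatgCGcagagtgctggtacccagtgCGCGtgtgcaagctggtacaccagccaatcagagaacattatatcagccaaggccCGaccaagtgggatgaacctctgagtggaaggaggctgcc
Xlr4a: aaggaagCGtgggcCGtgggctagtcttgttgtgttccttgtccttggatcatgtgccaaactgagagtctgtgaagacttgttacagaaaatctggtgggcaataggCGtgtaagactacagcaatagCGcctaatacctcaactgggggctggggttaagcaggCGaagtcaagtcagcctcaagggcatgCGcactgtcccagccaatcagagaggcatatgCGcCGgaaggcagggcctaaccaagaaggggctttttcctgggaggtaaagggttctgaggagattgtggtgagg
Xlr5a: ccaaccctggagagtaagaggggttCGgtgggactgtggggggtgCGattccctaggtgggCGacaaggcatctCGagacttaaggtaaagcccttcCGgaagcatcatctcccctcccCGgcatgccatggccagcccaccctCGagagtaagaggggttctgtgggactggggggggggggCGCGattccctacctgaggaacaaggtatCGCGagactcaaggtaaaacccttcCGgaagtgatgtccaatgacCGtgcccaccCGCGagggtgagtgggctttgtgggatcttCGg

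All 9 copies had a RefSeq window. Locally aligned promoter bases were 94.1% to 98.1% identical among the 3 Xlr3 copies and 98.2% to 98.9% identical among the 3 Xlr4 copies. The windows of Xlr5a and Xlr5b were 100% identical over 255 aligned bases, while that of Xlr5c could be aligned with either of them over 21 bases. CG occurred 5 times in the Xlr3a window, 7 times each in those of Xlr3b, Xlr3c and Xlr4c, and 8 times each in those of Xlr4a and Xlr4b. It occurred 16 times each in the Xlr5a and Xlr5b windows and 1 time in that of Xlr5c. The median over 32851 RefSeq promoter windows was 7, with quartiles of 3 and 20, so the Xlr3 and Xlr4 windows were near the middle of all windows. The Xlr5a and Xlr5b windows lay above the median. The Xlr5c window, which is inside its GENCODE M21 transcript, lay below it.

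The Xlr3 and Xlr4 windows shared a word that was found by comparing them, and the stretches that hold it are shown because they line up across the copies. CAGCCAATCAGAGA was found in all 6 of these windows and in 16 of the 32851 windows (0.0487%), searched on both strands, and in none of the 3 Xlr5 windows. Each stretch is the copy of the word nearest to the start, with CCAATC in capitals, on the plus strand for Xlr3b and Xlr4b and on the minus strand for the others. They lie at chrX:73097053-73097086 (Xlr3a), chrX:73192144-73192177 (Xlr3b), chrX:73265412-73265445 (Xlr3c), chrX:73082532-73082565 (Xlr4a), chrX:73214282-73214315 (Xlr4b) and chrX:73243125-73243158 (Xlr4c).
Xlr3a: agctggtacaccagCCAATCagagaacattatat
Xlr3b: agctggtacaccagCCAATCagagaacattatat
Xlr3c: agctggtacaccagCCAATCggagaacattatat
Xlr4a: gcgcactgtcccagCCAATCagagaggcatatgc
Xlr4b: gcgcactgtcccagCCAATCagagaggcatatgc
Xlr4c: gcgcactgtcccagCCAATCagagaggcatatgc

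The 3 Xlr4 stretches were the same, as were those of Xlr3a and Xlr3b. The Xlr3c stretch differed from the word at 1 base, and the exact word stood 231 bases before the start of Xlr3c instead. The Xlr3a window held the exact word at 2 places, and the Xlr3b window held a second copy with 1 mismatch. The shorter CCAATC was found in 6 of the 9 windows, against 16.1% of all windows, and CCAAT, which overlaps it, in 8 of the 9, against 37.4%. Both lie within the shared word, so the 6 Xlr3 and Xlr4 windows had to hold them. Nothing is read from these 2 counts. The TATA element TATAAA was in 0 of the 9 windows and in 13.6% of all windows on either strand. The GC box GGGCGG was in 0 of the 9 and in 35.7% of all windows, and the E-box CACGTG in 0 of the 9 and in 7.15%. These letter matches describe the windows and name no bound factor.

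The libraries held 5845653 to 8693079 counted reads in the knockout and 9389186 to 11046725 in wild type. Levels are in CPM (a gene's reads relative to all counted reads of its library), and 3 reads equalled 0.513 CPM in the smallest library and 0.272 CPM in the largest. Pml stood at 77.3, 75.4 and 76.3 CPM in knockout replicates 1, 2 and 3, against 186, 194 and 193 CPM in wild-type replicates 1, 2 and 3 (log2 fold change -1.31, SE 0.0412, limma adjusted p = 1.28e-20). The summed level of 4 Y-linked genes was 1.05 to 1.96 CPM in the knockout and 185 to 199 CPM in wild type, and whether this difference has a part in the Xlr levels was not tested. Log2 fold changes are knockout over wild type of log2(CPM + 1), a scale on which the changes of low genes come out too small.

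In Pml knockout cells the 9 Xlr copies together stood at 5.84% of their wild-type level. Their summed level was 9.62, 8.21 and 8.86 CPM in knockout replicates 1, 2 and 3, against 152, 155 and 153 CPM in wild-type replicates 1, 2 and 3. The knockout libraries lay far below the wild-type libraries, with no overlap, and both groups were tight. The means were 8.90 ± 0.708 CPM in the knockout and 153 ± 1.32 CPM in wild type (SD, n = 3 each). From the reads pooled over each group, as for every fold value and kept share below, the level was 17.1-fold lower. The 198 knockout and 4711 wild-type reads behind the share of 5.84% gave an exact 95% interval of 5.04% to 6.74%, which covers counting error only. In bulk libraries, fewer cells that express these genes and less RNA per cell cannot be told apart.

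For 9 of 9 copies the highest knockout library lay below the lowest wild-type library. This was so for 15.0% of the 12435 tested genes, and 0.193% of them reached a log2 fold change of -2 or lower, as 8 of the 9 copies did. The family was chosen on this contrast, so nothing is read from these counts. Ordered from the lowest log2 fold change of the 12435 tested genes, Xlr3a was number 5 and Xlr5c number 25, with the other 7 copies between them. The median log2 fold change was -3.01 over the 9 copies, with a range of -3.92 to -1.97, and 0.00463 over all tested genes.

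**Figure D1:**
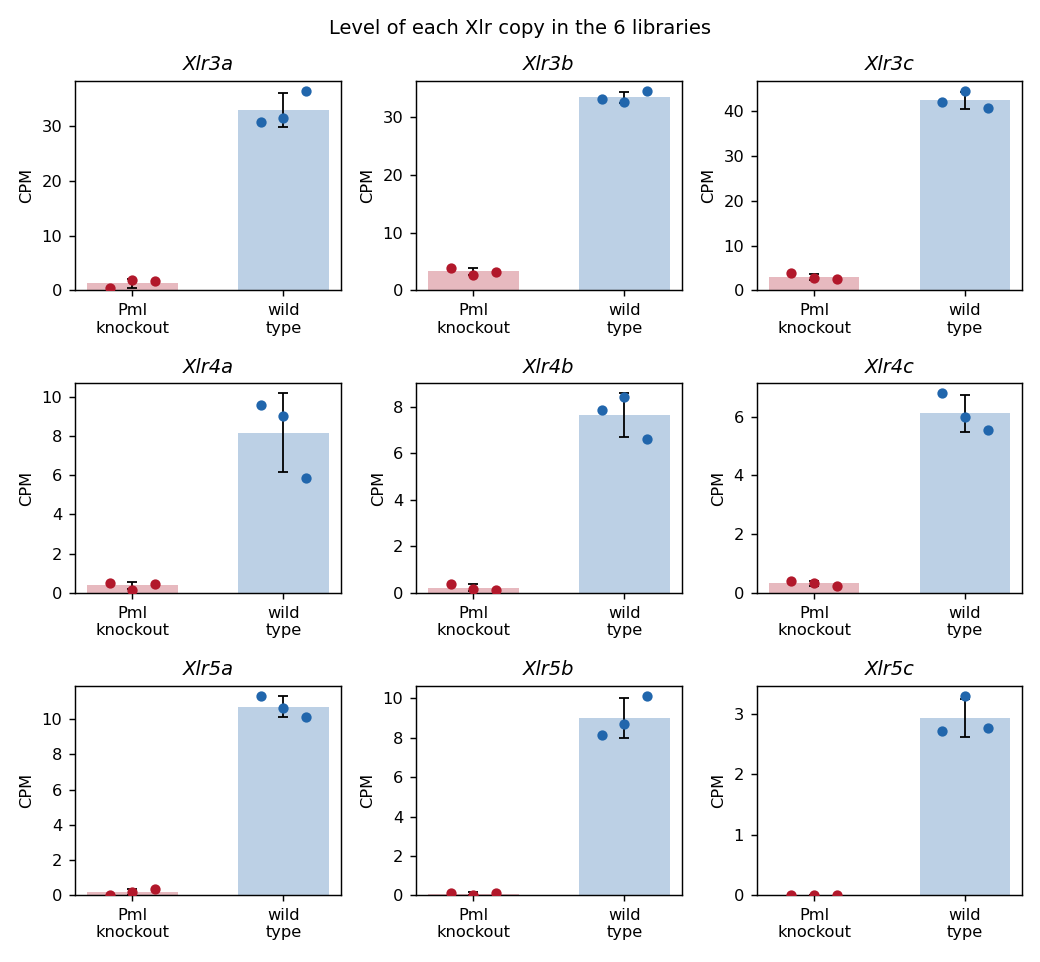
Level of each Xlr copy in CPM (linear axes that start at 0 and differ between panels) in the 3 Pml knockout libraries (left) and the 3 wild-type libraries (right). Points are libraries, bars are means and lines are SD. In every panel the knockout points lie below all wild-type points, and for Xlr5c all 3 knockout points are at 0.

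The Xlr3 copies, the ones whose protein has been seen on spermatocyte sex chromosomes, had the highest mean levels of the family per transcript length in both groups. In knockout replicate 1, though, Xlr3a lay below Xlr4a, Xlr4b and Xlr4c per length. Xlr3a stood at 0.396, 1.88 and 1.73 CPM in knockout replicates 1, 2 and 3, against 30.6, 31.5 and 36.3 CPM in wild-type replicates 1, 2 and 3. Knockout replicate 1 was low among the knockout libraries, with 3 reads of Xlr3a, and the groups did not overlap. Xlr3a averaged 1.33 ± 0.817 CPM in the knockout and 32.8 ± 3.08 CPM in wild type (SD, n = 3 each), and was 24.9-fold lower by pooled reads (log2 fold change -3.92).

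Xlr3b, the imprinted copy linked to ATRX in neurons, stood at 3.96, 2.74 and 3.22 CPM in knockout replicates 1, 2 and 3, against 33.1, 32.6 and 34.5 CPM in wild-type replicates 1, 2 and 3. The libraries of each group were close to one another and the groups did not overlap. It kept more of its wild-type level than any other copy, 10.02% (exact 95% interval 7.80% to 12.7%), and was 9.98-fold lower (log2 fold change -3.01). Xlr3c stood at 3.82, 2.74 and 2.65 CPM in knockout replicates 1, 2 and 3, against 42.1, 44.5 and 40.7 CPM in wild-type replicates 1, 2 and 3. It was the highest copy in every wild-type library, and its knockout values were like those of Xlr3b. Xlr3c was 13.8-fold lower (log2 fold change -3.43) and kept 7.24% (5.59% to 9.24%).

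Xlr4a, the copy at the left end of the cluster, stood at 0.527, 0.171 and 0.460 CPM in knockout replicates 1, 2 and 3, against 9.60, 9.01 and 5.86 CPM in wild-type replicates 1, 2 and 3. Wild-type replicate 3 was low among the wild-type libraries but still above every knockout library. Xlr4a was 20.3-fold lower (log2 fold change -2.71) and kept 4.93% (exact 95% interval 2.23% to 9.50%, from 9 and 254 reads in knockout and wild type).

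Xlr4b, an imprinted copy, stood at 0.396, 0.171 and 0.115 CPM in knockout replicates 1, 2 and 3, against 7.88, 8.43 and 6.60 CPM in wild-type replicates 1, 2 and 3. The groups did not overlap, and the knockout values rest on 5 reads in all. Xlr4b was 33.9-fold lower (log2 fold change -2.82) and kept 2.95% (exact 95% interval 0.948% to 6.97%), or 1.79% without knockout replicate 1. Xlr4c, which is also imprinted, stood at 0.396, 0.342 and 0.230 CPM in knockout replicates 1, 2 and 3, against 6.79, 6.005 and 5.54 CPM in wild-type replicates 1, 2 and 3. Here too the groups did not overlap, with 7 knockout reads in all. Xlr4c was 19.4-fold lower and kept 5.15% (2.04% to 10.8%).

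The Xlr5 copies, whose separate roles are not given here, came nearest to 0 in the knockout. Xlr5a stood at 0, 0.171 and 0.345 CPM in knockout replicates 1, 2 and 3, against 11.3, 10.7 and 10.1 CPM in wild-type replicates 1, 2 and 3. The knockout values are 4 reads in all, and the groups did not overlap. Xlr5a was 59.3-fold lower (log2 fold change -3.33) and kept 1.69% (exact 95% interval 0.457% to 4.36%). Knockout replicate 3 held 3 of the 4 reads, and the kept share was 0.694% without it and 2.57% without knockout replicate 1.

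Xlr5b stood at 0.132, 0 and 0.115 CPM in knockout replicates 1, 2 and 3, against 8.15, 8.72 and 10.1 CPM in wild-type replicates 1, 2 and 3. Its 2 knockout reads give a kept share of 1.01% with an exact 95% interval of 0.122% to 3.69%. Xlr5c was at 0 CPM in all 3 knockout libraries, against 2.72, 3.29 and 2.77 CPM in wild-type replicates 1, 2 and 3. It was the lowest copy in wild type, with 90 reads over the group, and at least 21.6-fold lower in the knockout taking 3 reads in the whole group as the floor. In the authors' deposited table the log2 fold change was -7.70 for Xlr5c, -6.43 for Xlr5b and -3.32 for Xlr3b, the 2 lowest and the highest of the 9 copies. With 0 and 2 knockout reads, the sizes of the Xlr5c and Xlr5b values are poorly fixed. On log2(CPM + 1) Xlr5c instead had the smallest change of the 9 copies, -1.97.

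Summed by subfamily, Xlr3 kept more than Xlr5. If each read was counted once, a sum does not depend on how reads were split among its copies. Whether this was so is not given, and the intervals take it as so. A sum can also depend on reads shared with other genes. The Xlr3 sum was 8.17, 7.36 and 7.59 CPM in knockout replicates 1, 2 and 3, against 106, 109 and 112 CPM in wild-type replicates 1, 2 and 3, and 7.13% was kept (exact 95% interval 6.07% to 8.31%). The Xlr4 sum was 1.32, 0.684 and 0.805 CPM in knockout replicates 1, 2 and 3, against 24.3, 23.4 and 18.0 CPM in wild-type replicates 1, 2 and 3, and 4.30% was kept (2.64% to 6.63%). The Xlr5 sum was 0.132, 0.171 and 0.460 CPM in knockout replicates 1, 2 and 3, against 22.2, 22.7 and 23.0 CPM in wild-type replicates 1, 2 and 3, and 1.20% was kept (0.439% to 2.63%). The Xlr3 interval overlapped that of Xlr4 and lay wholly above that of Xlr5. The sums were 14.03-fold, 23.3-fold and 83.3-fold lower for Xlr3, Xlr4 and Xlr5, and these fold values rest on 171, 21 and 6 knockout reads. Knockout replicate 3 held 4 of the 6 Xlr5 reads, and without it Xlr5 kept 0.659%, a 151.7-fold lower level.

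**Figure D2:**
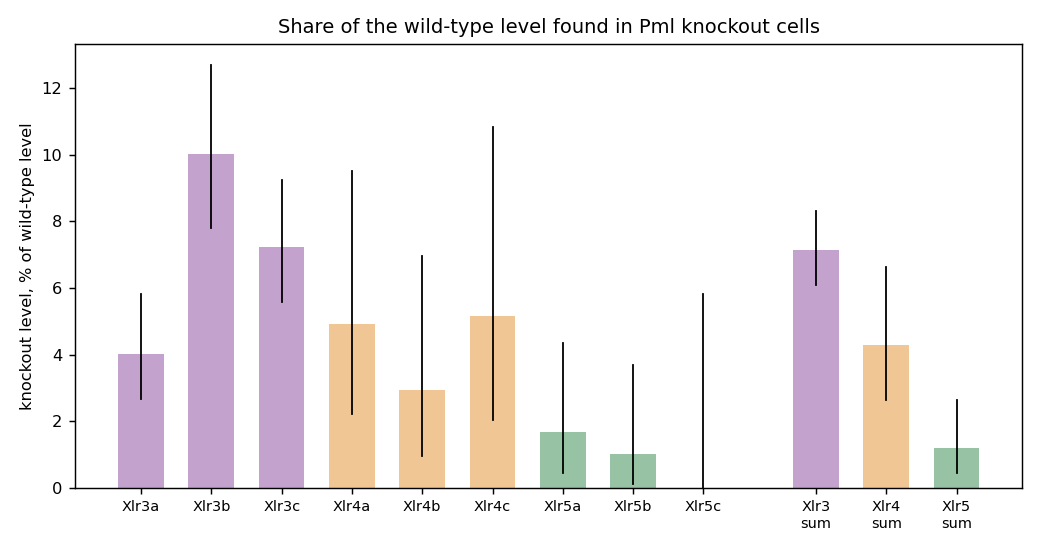
Knockout level as a percentage of the wild-type level for each Xlr copy and, at the right, for the 3 subfamily sums. Bars are pooled reads over the libraries of a group relative to library totals and black lines are exact 95% intervals (counting error only); the bars run from 10.02% for Xlr3b to 0 for Xlr5c, and the Xlr3 sum of 7.13% stands above the Xlr5 sum of 1.20%.

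In these libraries the make-up of the family's reads differed between the groups. The family was chosen on this contrast, so the shares are a description, and their intervals, from pooled reads, cover counting error only. Xlr3 copies held 86.4% of the family's reads in the knockout (exact 95% interval 80.8% to 90.8%), against 70.8% in wild type (69.5% to 72.1%). By library the Xlr3 share was 84.9%, 89.6% and 85.7% in knockout replicates 1, 2 and 3, against 69.5%, 70.2% and 73.1% in wild-type replicates 1, 2 and 3. All 3 knockout libraries were above all 3 wild-type libraries. Xlr5 copies held 3.03% in the knockout (1.12% to 6.48%) and 14.8% in wild type (13.8% to 15.8%), and Xlr4 copies held 10.6% in the knockout (6.69% to 15.8%) and 14.4% in wild type (13.4% to 15.4%). Among Xlr3 reads, Xlr3a held 17.0% in the knockout (11.7% to 23.4%) and 30.1% in wild type (28.5% to 31.7%), and Xlr3b held 43.3% in the knockout (35.7% to 51.1%) and 30.8% in wild type (29.2% to 32.4%). The share of Xlr3c, 39.8% in the knockout and 39.1% in wild type, differed by less than its counting interval. The Xlr3a share was 4.84%, 25.6% and 22.7% in knockout replicates 1, 2 and 3, so replicate 1 stood apart from the other knockout libraries.

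Levels of different copies can be set beside each other only per length, as CPM per kb of the GENCODE M21 transcript. In wild type Xlr3c had the highest level per length, 26.8 ± 1.20 CPM per kb, followed by Xlr3b with 21.4 ± 0.619 and Xlr3a with 19.9 ± 1.87 (SD, n = 3). The library ranges of Xlr3b and Xlr3a overlapped, and that of Xlr3c lay above both. Next came Xlr4a with 7.02 ± 1.73 CPM per kb, Xlr5a with 6.48 ± 0.364, Xlr4b with 6.36 ± 0.779, Xlr5b with 5.44 ± 0.614 and Xlr4c with 5.01 ± 0.518. Each of these 5 overlapped its neighbour in the order. The library range of Xlr5a (6.132 to 6.858) lay above those of Xlr5b (4.932 to 6.125) and Xlr4c (4.54 to 5.565). The other pairs overlapped, so the rest of their order is not resolved. Xlr5c, with 1.77 ± 0.193 CPM per kb, lay below all of them without overlap. In the knockout Xlr3b had 2.11 ± 0.392, Xlr3c 1.94 ± 0.414 and Xlr3a 0.811 ± 0.496 CPM per kb, and the Xlr4 and Xlr5 copies ran from 0.332 for Xlr4a to 0 for Xlr5c.

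How reads that match several copies were assigned is not given in the sources used here, and the copies are close enough for this to matter. The GENCODE M21 transcripts were 98.5% to 99.1% identical among Xlr3 copies, 98.7% to 99.1% among Xlr4 copies and 99.3% to 99.4% among Xlr5 copies, against 59.0% to 71.2% between subfamilies. Of all stretches of 50 bases in a transcript, those found in no other gene made up 28.3% for Xlr3a, 6.67% for Xlr3b and 27.9% for Xlr3c. They made up 20.3% to 30.5% for the Xlr4 copies and 9.79% to 15.1% for the Xlr5 copies. At 100 bases the share was 19.8% to 54.5% over the 9 copies. Single-copy values are therefore less certain than subfamily sums, and the share of unique sequence was smallest for Xlr3b at 50 bases and for Xlr5b at 100 bases. Stretches of 50 bases found only within the own subfamily made up 73.1% to 84.5% for Xlr3 copies. They made up 55.9% to 63.2% for Xlr4 copies and 77.35% to 78.85% for Xlr5 copies. The rest also occurred in other genes, pseudogenes of the family among them, so the sums carry part of this uncertainty. Reads dropped or counted at several copies would change the sums too.

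**Figure D3:**
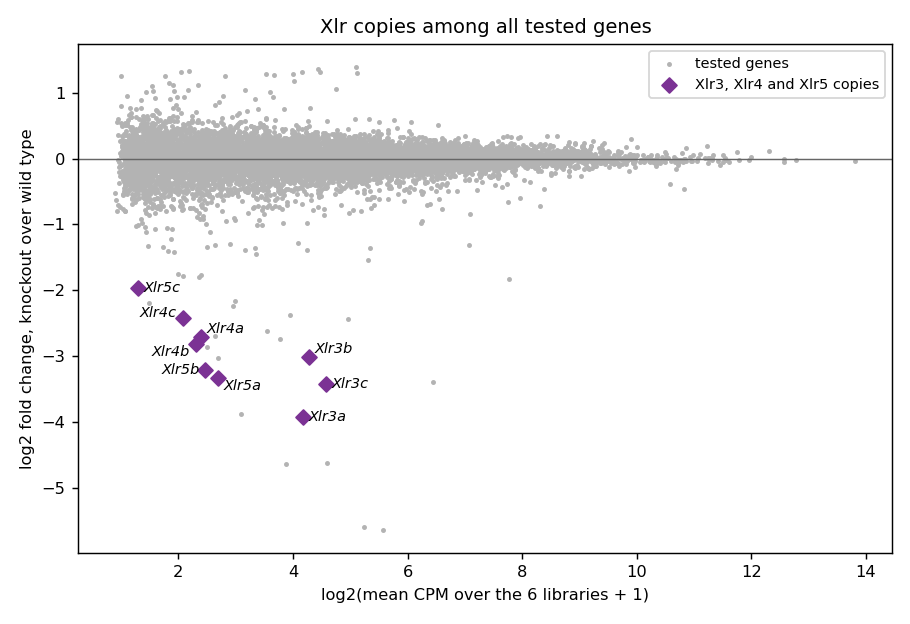
Log2 fold change, knockout over wild type, against log2 of the mean CPM over the 6 libraries plus 1, for the 12435 tested genes (grey) and the 9 Xlr copies (purple diamonds). The copies lie between -3.92 and -1.97, below nearly all genes of similar level.

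The copies lie in a cluster of 216 kb on chromosome X (73074345 to 73290515 in mm10, by the deposited loci). In GENCODE M21 the order from the left is Xlr4a, Xlr3a, Xlr5a, Xlr5b, Xlr3b, Xlr4b, Xlr4c, Xlr3c and Xlr5c, with Xlr5b, Xlr3b and Xlr4b on the plus strand and the others on the minus strand. Copies of the 3 subfamilies are thus interleaved. The deposited table gives Xlr3a, Xlr3b, Xlr3c, Xlr4b, Xlr4c, Xlr5a, Xlr5b, F8a and Spin2d 1 shared locus, 73086293 to 73265390, so the order rests on the annotation.

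Next to the Xlr copies, lower levels were found on the left side of the cluster and inside it, while the nearest tested genes on the right did not pass the test. Of 51 other genes that start within 1 Mb of the cluster, 29 were tested, and 7 fell, 3 rose and 19 did not pass (limma adjusted p under 0.05). Of all tested genes 7.49% fell and 6.54% rose. On the left 4 of 6 fell and 0 rose (0 at an unadjusted p under 0.05, and 0 by edgeR and DESeq2). Inside the cluster 1 of 1 fell, and on the right 2 of 22 fell and 3 rose.

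Pnma5, a gag-derived gene of the paraneoplastic antigen family that starts 34.7 kb to the left, stood at 9.23, 8.55 and 8.28 CPM in knockout replicates 1, 2 and 3, against 53.0, 48.5 and 52.4 CPM in wild-type replicates 1, 2 and 3. The groups were far apart (log2 fold change -2.43, SE 0.0853, limma adjusted p = 1.87e-19). Of the wild-type level 16.9% was kept, more than for any Xlr copy. Pnma3, of the same gene family and 6.15 kb from Xlr4a, fell to 1.247 ± 0.213 CPM in the knockout, against 6.97 ± 2.10 CPM in wild type (log2 fold change -1.79, SE 0.188, adjusted p of 3.31e-08 by limma), with 18.2% kept. F8a, which encodes a partner of huntingtin and lies between Xlr4b and Xlr4c, stood at 1.45, 1.20 and 2.76 CPM in knockout replicates 1, 2 and 3, against 3.98, 3.00 and 3.51 CPM in wild-type replicates 1, 2 and 3.

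The F8a groups did not overlap, but its log2 fold change of -0.72 (SE 0.196, limma adjusted p = 0.0125) was smaller than that of the Xlr copies on both sides. The F8a call was lost without wild-type replicate 1 (adjusted p = 0.0801) or 3 (0.0519), with no filter (0.0501) and with DESeq2 (0.138). Zfp185, a LIM-domain gene to the left of Pnma5, had a log2 fold change of -0.31 (SE 0.101, limma adjusted p = 0.0397), a call lost without knockout replicate 2 (0.0621) or 3 (0.179) and without wild-type replicate 2 (0.160) or 3 (0.131). The Zfp185 call was also lost with no filter (0.0950) and with DESeq2 (0.204). Beyond it, Nsdhl, an enzyme of cholesterol synthesis, averaged 45.6 ± 1.67 CPM in the knockout and 44.1 ± 0.134 CPM in wild type (limma adjusted p = 0.672), and Cetn2, a centrin of the centrosome, 30.4 ± 4.16 CPM in the knockout and 32.1 ± 0.463 CPM in wild type (0.554). Magea4, a member of the MAGE family 851 kb to the left, stood at 0.264, 0.684 and 1.15 CPM in knockout replicates 1, 2 and 3, against 10.2, 9.10 and 9.91 CPM in wild-type replicates 1, 2 and 3 (log2 fold change -2.69, SE 0.182, limma adjusted p = 2.15e-12). It was the only other tested gene within 1 Mb below -2 besides Pnma5.

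On the right, Zfp275, a zinc finger gene 52.1 kb beyond Xlr5c, averaged 29.8 ± 0.874 CPM in the knockout and 30.1 ± 2.04 CPM in wild type (log2 fold change -0.014, SE 0.0744, limma adjusted p = 0.929). Its sign turned without knockout replicate 3 (0.0066) and without wild-type replicate 2 (0.039), and that of Cetn2 turned without knockout replicate 3 (0.015). Haus7, a subunit of the augmin complex of the spindle, averaged 32.2 ± 2.67 CPM in the knockout and 30.6 ± 1.53 CPM in wild type (limma adjusted p = 0.627). All 22 tested genes on this side lay between -0.18 and 0.35 on the log2 scale. Dusp9, a phosphatase of ERK, fell with a log2 fold change of -0.18 and Bcap31, a membrane protein of the endoplasmic reticulum, with -0.15. The Bcap31 call was lost without knockout replicate 2 (adjusted p = 0.0993), without wild-type replicate 1 (0.0751) or 3 (0.0853) and with DESeq2 (0.120). Pdzd4 (0.35), Irak1 (0.30), a kinase of Toll-like receptor signalling, and Flna (0.24), an actin crosslinker, rose. Over chromosome X without the 9 copies, 38 of 415 tested genes fell (9.16%) and 49 rose.

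**Figure D4:**
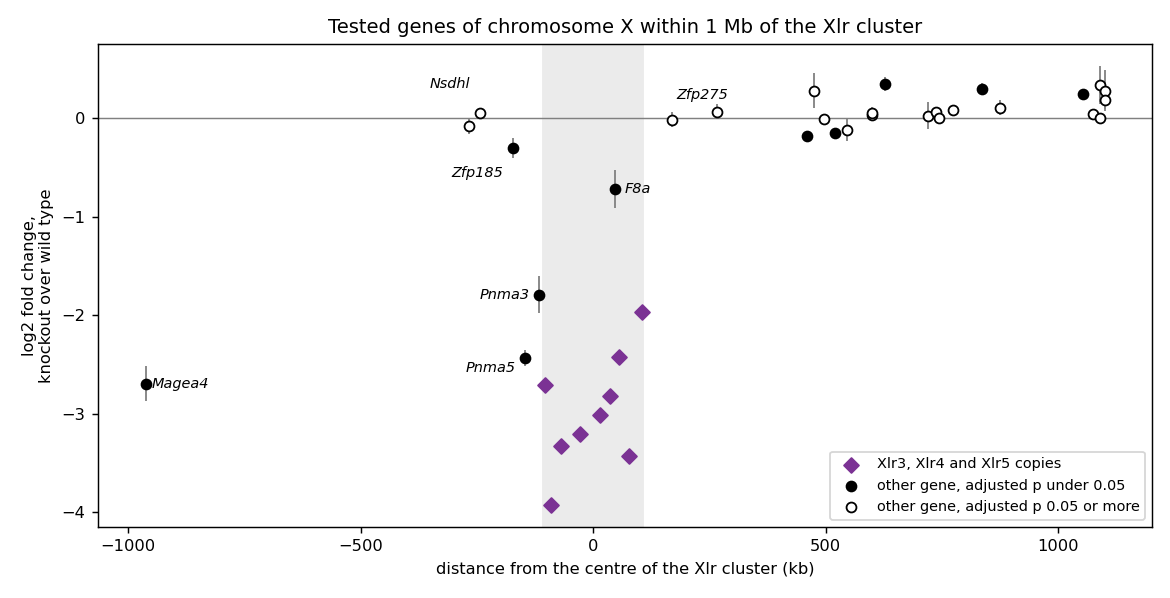
Log2 fold change, knockout over wild type, of tested chromosome X genes by the distance of their midpoint from the centre of the Xlr cluster in kb. Grey shading is the cluster, purple diamonds the 9 Xlr copies, filled circles other genes past the limma test and open circles those not past it, with lines of 1 SE; Pnma5 and Pnma3 lie low just left of the shading, and the genes to its right stay near 0.

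Relatives of the family outside the cluster were few. Of 12 listed, 6 were in the table and 2 were tested, of which 1 fell and 1 rose; 0 passed with DESeq2. Xlr, the founding member that gave the family its name, stood at 1.19, 1.88 and 1.04 CPM in knockout replicates 1, 2 and 3, against 3.26, 2.32 and 2.24 CPM in wild-type replicates 1, 2 and 3. The groups did not overlap, 49.8% was kept, and Xlr passed limma at an adjusted p of 0.0345 with a log2 fold change of -0.61 (SE 0.197). This call was lost without knockout replicate 1 (adjusted p = 0.0821) or 3 (0.136) and without wild-type replicate 1 (0.206), 2 (0.0679) or 3 (0.0583).

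Sycp3, the synaptonemal complex gene, went the other way, at 13.1, 13.9 and 13.8 CPM in knockout replicates 1, 2 and 3, against 9.23, 11.0 and 11.3 CPM in wild-type replicates 1, 2 and 3. The groups did not overlap (log2 fold change 0.34, SE 0.111, limma adjusted p = 0.0350). The call was lost without knockout replicate 2 (0.0641) or 3 (0.0991) and without wild-type replicate 1 (0.202) or 2 (0.0603). Sly, a Y-linked relative active in spermatids, had 2 reads in the knockout and 0 in wild type, under the floor of 3 reads. The Y-linked genes given above were near 0 in the knockout, and where the 2 Sly reads came from was not tested. Gm773 had 0 reads in the knockout and 1 in wild type, and Slx and Slxl1 had 0 in both. The 6 listed pseudogenes were not analysed here.

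A relative that was noticed after its values had been seen is 1700013H16Rik, with the RefSeq synonyms Slx2 and Xlr6, at 53742901 to 53757831 on chromosome X and far from the cluster. It stood at 0.396, 0.513 and 0.345 CPM in knockout replicates 1, 2 and 3, against 10.8, 10.2 and 10.8 CPM in wild-type replicates 1, 2 and 3. The groups were far apart (log2 fold change -3.03), and 3.85% was kept, within the range of the Xlr4 and Xlr5 copies. DXBay18 and Spin2d, inside the cluster and also named after their values were seen, had 0 and 2 reads in the knockout, against 8 and 6 in wild type, too few to test.

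Among X-linked germline and multicopy genes outside the family, 66 by symbol, 9 were tested, of which 5 fell, 4 did not pass and 0 rose (0 at an unadjusted p under 0.05, and 0 by edgeR and DESeq2). Magea4, described above, fell most. Nxf3, of the family of nuclear RNA export factors, stood at 1.05, 2.39 and 1.84 CPM in knockout replicates 1, 2 and 3, against 12.5, 11.5 and 11.2 CPM in wild-type replicates 1, 2 and 3 (log2 fold change -2.23, SE 0.165, limma adjusted p = 1.81e-11). Rhox5, a reproductive homeobox gene, stood at 1.32, 1.03 and 1.84 CPM in knockout replicates 1, 2 and 3, against 6.16, 7.94 and 7.24 CPM in wild-type replicates 1, 2 and 3 (log2 fold change -1.77, SE 0.171, limma adjusted p = 6.79e-09). Both had groups that did not overlap. On the log2(CPM + 1) scale their falls were smaller than those of 8 and 9 of the 9 Xlr copies, with Nxf3 beyond Xlr5c. By pooled reads Nxf3 kept 14.6% and Rhox5 kept 20.4% of the wild-type level, more than any Xlr copy. Rhox1 (-0.61, limma adjusted p = 0.0329) was lost without knockout replicate 2 (0.0734) or 3 (0.0544), without wild-type replicate 1 (0.164) or 3 (0.132) and with DESeq2 (0.216). Mageb16 (-0.17, 0.0349) was lost without each of the 6 libraries but wild-type replicate 1, with adjusted p up to 0.197. The Mageb16 call was also lost with no filter (0.05004) and with DESeq2 (0.199).

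A list of 22 chromatin genes held Atrx, histone H3.3 and its chaperones, factors that add, keep or remove DNA methylation, and several histone-modifying enzymes. Their log2 fold changes were all smaller in size than that of any Xlr copy. Of the 22, all tested, 5 rose, 3 fell and 14 did not pass. Tet3, a dioxygenase that oxidises methylcytosine, fell to 6.27 ± 0.489 CPM in the knockout, against 12.9 ± 0.265 CPM in wild type (log2 fold change -0.93, SE 0.119, limma adjusted p = 1.30e-06). Dnmt3b, a de novo DNA methyltransferase, fell (-0.32), and Dnmt3l, its cofactor (0.21), Tet1 (0.31), Tet2 (0.19) and Zfp57, a factor of imprint maintenance (0.20), rose. Dnmt1 and Atrx were named after their values were seen. Dnmt1, the maintenance methyltransferase, had -0.09.

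Atrx stood at 227, 208 and 221 CPM in knockout replicates 1, 2 and 3, against 194, 175 and 214 CPM in wild-type replicates 1, 2 and 3, and these ranges overlap. The log2 fold change of 0.18 (SE 0.0482) passed limma with an adjusted p of 0.0126, a call lost without knockout replicate 3 (0.0661) or wild-type replicate 2 (0.171) and with DESeq2 (0.295). The Tet2 call was lost without knockout replicate 1 (0.0669) or 3 (0.0849) and without wild-type replicate 2 (0.225), and that of Dnmt1 without any of 5 libraries. Both were also lost with DESeq2 (0.0795 for Tet2, 0.149 for Dnmt1). With no filter the calls of Tet2 (0.0718), Dnmt1 (0.0881) and Atrx (0.0724) were lost. Daxx, the H3.3 chaperone, averaged 99.4 ± 2.01 CPM in the knockout and 96.4 ± 6.47 CPM in wild type (limma adjusted p = 0.594).

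The labelled cell type was checked with 5 markers of embryonic stem cells, Pou5f1, Nanog, Zfp42, Sox2 and Esrrb. Their summed level was 4395 to 4454 CPM in the knockout and 4360 to 4389 CPM in wild type, and 0 of 5 passed limma (1 at an unadjusted p under 0.05, and 0 by edgeR and DESeq2). Lymphocyte markers, of the cells after which Xlr genes are named, summed to 5.65 to 6.07 CPM in the knockout and 4.16 to 6.18 CPM in wild type; Ptprc and Ms4a1 were at 0 and 0 of 2 tested passed (0 at an unadjusted p under 0.05, and 0 by edgeR and DESeq2). Germ cell markers summed to 51.9 to 55.8 CPM in the knockout and 52.0 to 59.4 CPM in wild type. The median log2 fold change of these 5 was -0.20. Sycp1, another synaptonemal complex gene, rose (log2 fold change 0.71, limma adjusted p = 0.00197) and 0 of the 5 fell in the limma test (2 at an unadjusted p under 0.05, and 0 by edgeR and DESeq2).

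Fibroblast markers summed to 23.6 to 31.5 CPM in the knockout and 24.5 to 28.5 CPM in wild type, with Postn at 0, Pdgfrb higher (0.39) and Thy1 lower (-0.95) of 3 tested. All 4 tested markers of 2-cell-like cells rose, with a median log2 fold change of 1.30, and the 6 listed summed to 119 to 132 CPM in the knockout and 46.2 to 49.1 CPM in wild type. Whether these cells have a part in the Xlr levels was not tested.

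The profile of the 9 summed copies over the 6 libraries was set against 11850 other tested genes by the root mean square distance of log2(CPM + 1) after subtracting the wild-type mean. The nearest was Efhc2, an EF-hand gene elsewhere on the X chromosome, at a distance of 0.111, where the Xlr profile itself had a root mean square of 2.80. Efhc2 stood at 0.132, 0 and 0.115 CPM in knockout replicates 1, 2 and 3, against 15.8, 13.2 and 15.98 CPM in wild-type replicates 1, 2 and 3. By pooled reads Efhc2 kept 0.605% of its wild-type level, from 2 knockout reads, against 5.84% for the summed Xlr copies. The added 1 shrinks the change of a gene with values this low, so a small distance is not an equal fold. The next were Plagl1, an imprinted zinc finger gene on chromosome 10 (0.431), the Y-linked Uba1y (0.469) and Uty (0.510), and AI662270 on chromosome 11 (0.785). These 5 were chosen for a profile with low knockout values, so they are named without a test.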

How the data were processed

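Per the labels' protocols, the libraries came from the TruSeq RNA kit of Illumina. Per the submitters' processing notes, cutadapt, TopHat, edgeR and the build mm10 were used. For tool versions, the read counter, read length and strandedness nothing is given in the sources used here. As the column names show (per the file headers), the authors deposited a CPM value per gene and library, plus their own p-value, FDR, log2 fold change and mean log2 level of each gene. The library of each column was taken from the genotype and replicate number in its name.

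From the values, 100% of the deposited CPM came out as whole reads (tolerance 0.01 read). Of 25833 rows, 1097 had no value and 315 were repeats, which left 24421 genes. A spreadsheet had turned 27 symbols into dates. Libraries were compared by a chi-square of their reads, which per degree of freedom was 1.33 to 1.64 within groups and 3.19 to 4.53 between groups. The values within groups were not far above 1, the value for counting error alone. They do not show whether replicates were separate cultures. Every library was counted as 1 sample.

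The main test was limma 3.58.1 (trend on mean intensity, no covariate) on log2(CPM + 1) values of the 12435 genes that edgeR's filterByExpr kept, and p-values were Benjamini-Hochberg adjusted over all of them at a threshold of 0.05. It called 1745 genes. On the recovered counts, edgeR 4.0.16 (quasi-likelihood) called 1820 genes, 835 higher and 985 lower. The other alternatives were pseudocounts of 0.5 and 2, no filter, DESeq2 1.42.0, a replicate block and leaving out each library. Scripts were tested on simulated counts.

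Shares of the wild-type level use reads pooled per group over library totals, with exact (Clopper-Pearson) 95% intervals; intervals and the floor of 3 reads cover counting error only, and no source used here names molecular identifiers. Transcripts are from GENCODE M21 and promoters from RefSeq (GRCm38.p6). Loci are the deposited mm10 loci with 1 added to the start.

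The members and lists were chosen with earlier results of these data known. Named genes were Pml, the 9 copies, the 5 genes with the nearest profile (leaving out Gm-number, Rik and LOC symbols), every called neighbour and the 2 nearest tested genes on each side, every relative with a read, called genes of the other lists (at most 6 each) and 4 Y-linked genes; exceptions are named where they appear.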

Additional observations from a re-analysis of the deposited data

How the results depend on the processing

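The number of genes called was 1745, and 796 with DESeq2; leaving out 1 library gave 1160 (without wild-type replicate 2) to 1852. With no filter it was 1341 and with edgeR 1820. For the relatives of the Xlr family the count was 2, and 0 with no filter and with DESeq2, and 0 to 1 without 1 library. For the list of 22 chromatin genes it was 8, and 5 with no filter and with DESeq2, and 5 to 9 without 1 library. For the X-linked germline genes it was 5, and 3 with DESeq2, and 3 to 4 without 1 library. For the neighbours within 1 Mb it was 10, and 7 to 10 without 1 library. The log2 fold change of the summed Xlr3 copies was -3.66, and -3.73 at a pseudocount of 0.5, -3.51 at 2, -3.81 with edgeR and -3.82 with DESeq2. For Xlr4 it was -3.57, and -3.98, -3.02, -4.52 and -4.53 under the same settings, and for Xlr5 -4.24, and -4.96, -3.45, -6.31 and -6.39. The moves were largest for the Xlr5 sum, which had the lowest knockout values, and their cause was not tested. All 9 copies and 3 sums kept a negative sign in every setting run. Their groups did not overlap, so the sign had to stay, and nothing is read from this. Without 1 library the sums ranged from -3.69 to -3.63 (Xlr3), -3.70 to -3.47 (Xlr4) and -4.36 to -4.17 (Xlr5). The added 1 of log2(CPM + 1) holds the Xlr5 value in place; by pooled reads the fold was 83.3, and 65.7 to 151.7 without 1 library. Replicates share numbers across groups, but same-numbered libraries deviated together only weakly (correlations 0.0755, 0.0603 and 0.0136, none over 0.1), so they were not taken as pairs; each library correlated best with its own number, a hint from the data. A replicate block called 2337 genes. Each replicate number occurs once in each group, so a block cannot change a difference of group means. The log2 fold change of the sums therefore had to stay as it was. Cetn2 ranged from -0.18 to 0.015 without 1 library, positive without knockout replicate 3, and Zfp275 from -0.047 to 0.039, positive without knockout replicate 3 (0.0066) or wild-type replicate 2; neither passed the test in any setting, and the cause was not tested. Depth limits the Xlr4 and Xlr5 copies, whose knockout values rest on 0 to 9 reads each.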
